A study of Trametes cinnabarina with 16 samples.

Results

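The comparison described here sets 3 cellobiose cultures against 3 maltose cultures of the white-rot fungus Pycnoporus cinnabarinus (Trametes cinnabarina in the sample records), strain PB94. They are 6 of the 16 RNA libraries of the series. The libraries were chosen by their labelled energy substrate and not by any measured value. The other 10 libraries are 1 from glucose, 3 from poplar, 3 from switchgrass and 3 from control cultures that had no energy substrate. Every culture was whole organism, was started from a 5 mm agar cube overgrown with the fungus in semi-minimal medium, and was harvested after at least 5 days. Per the labels' protocols, the cellobiose, maltose, glucose and control libraries were a standard stranded mRNA (poly-A) preparation, while ribosomal RNA was removed for poplar and switchgrass. The labels do not state whether the replicates of a substrate were grown separately. The p-values therefore reflect only how far the libraries in each fit spread, those of other substrates included, and this spread may be technical.

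Cellobiose and maltose are both pairs of glucose units and differ in the bond between them. Cellobiose has the beta bond of cellulose and is the main product of the cellobiohydrolases that white-rot fungi secrete on wood; it is split by beta-glucosidases or oxidised by cellobiose dehydrogenase, and in many fungi it acts as a signal that raises the genes of cellulose breakdown. Maltose has the alpha bond of starch, is released by amylases and is split by alpha-glucosidases. The tables give assembly identifiers without gene names or sequences, and 0 of them matched the reference gene list of the species, so no gene could be assigned to any of these enzymes and genes are described by identifier, level and pattern. An identifier such as TR9940__c5_g1 holds a first number (TR9940, called an assembly cluster here), a component and a gene.

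Values are TPM (a transcript abundance), which are corrected for transcript length and sum to 1000000 in each library. TPM keep no read depth, so depth is unknown for every library, and a value of 0 is given only as listed at 0. Because TPM are shares of the RNA in a library, more RNA of a gene per cell and more cells that express it cannot be told apart. The authors deposited the same 16 columns of values under 2 sets of column names that agree in 0 columns. The names used here are those of the table whose name mentions expected counts. Under the other set the columns used here as cellobiose are named poplar, the first and second maltose columns keep the name maltose, and the column used here as the third maltose library is named glucose. Directions given below hold for the names used. The tables hold no sequence, so the organism that each assembled gene comes from was not tested, and the word gene below stands for an assembled gene.

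The third maltose library stood apart from the other 5. Its 10 most abundant genes held 83.7% of its TPM, against 12.3% to 12.7% in the cellobiose libraries and 6.92% and 8.08% in the other maltose libraries. Of the 23981 tested genes it listed 50.4% at 0, while the cellobiose libraries listed 20.5%, 9.89% and 11.7% and the other maltose libraries 9.68% and 11.4%. Its Spearman correlation across genes was 0.597 with the first and 0.600 with the second maltose library, which correlated with each other at 0.941; the 3 cellobiose libraries correlated with one another at 0.867 to 0.927. The median SD per gene on the log2(TPM + 1) scale was 0.316 in cellobiose (n = 3), 1.07 in maltose with all 3 libraries and 0.202 in the first 2 maltose libraries. Each result below is therefore given with and without the third maltose library.

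**Figure D1:**
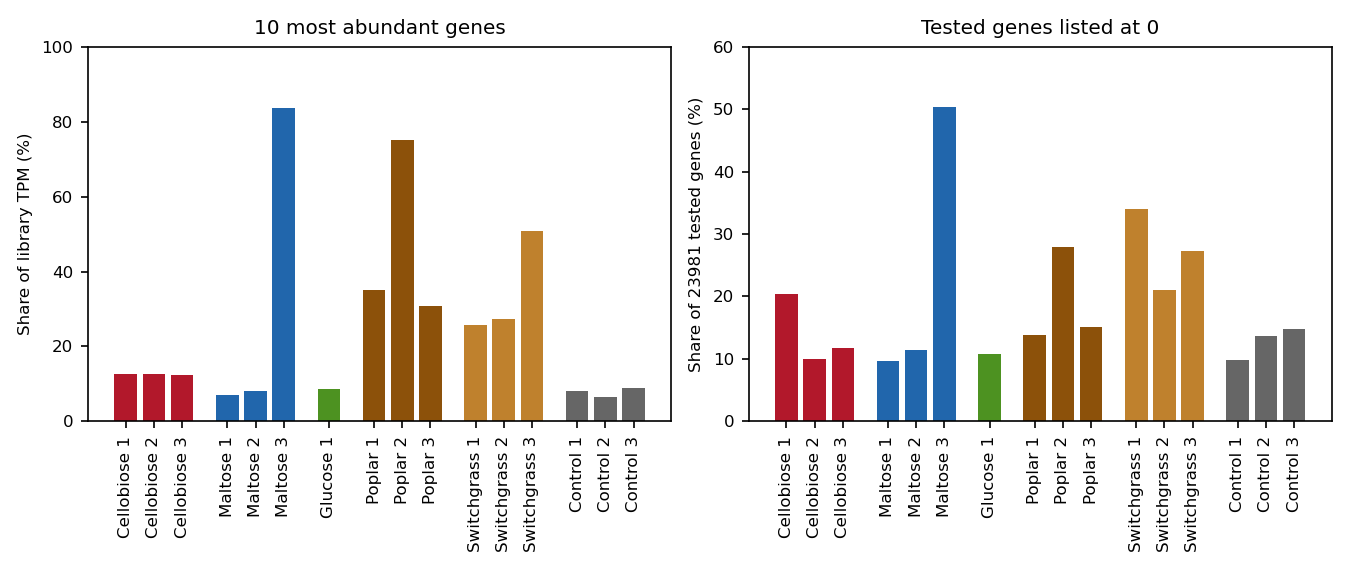
Left, share of each library's TPM held by its 10 most abundant genes (percent); right, share of the 23981 tested genes listed at 0 (percent); one bar per library, coloured by substrate. The third maltose library has the highest bar in both panels, at 83.7% and 50.4%.

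The 10 genes that filled the third maltose library were detected in all 16 libraries. They held 0.616%, 1.45% and 0.706% of TPM in the cellobiose libraries, and 0.801%, 2.54% and 83.7% in the maltose libraries. In the control libraries they held 1.36% to 1.73%, in the glucose library 2.90%, and in the plant libraries 2.08% to 8.40%. The highest of them exceeded the lowest 7.56-fold in the third maltose library and 7.19-fold to 18.3-fold in the other libraries. Of the 10 genes, 4 belong to a single assembly cluster. None of the 10 was called different between cellobiose and maltose, with adjusted p (limma) between 0.341 and 0.394 with all libraries and between 0.880 and 1.0 without the third maltose library. Over all tested genes the shares called were 0.484% and 6.07%, so 10 genes are too few to compare with them. The 10 were also chosen by their level in the third maltose library, which widened their maltose spread in the fit with all libraries.

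With all libraries, cellobiose differed from maltose mainly by genes that were higher on cellobiose. Log2(TPM + 1) of the 23981 genes was modelled in limma with an intensity trend and the mean of each of 6 groups over 16 libraries; a gene was called at a Benjamini-Hochberg adjusted p under 0.05. The fit shared its spread over the groups, which assumes that they vary alike. The median SD per gene was 0.316 in cellobiose, 1.07 in maltose, 0.245 in control, 0.800 in poplar and 0.714 in switchgrass. The groups were thus unequal in spread. The test called 116 genes, 0.484% of those tested. Of them 106 were higher on cellobiose, 0.442% of those tested, and 10 were lower, 0.0417% of those tested. The median log2 fold change, cellobiose minus maltose, was 4.44 over the 106 higher genes and 0.65 over all tested genes. Median-of-ratios scaling moved the median of all tested genes to 0.10 and called 120 genes higher and 52 lower. Without the second cellobiose library 54 genes were called, without the third 55, and without the third maltose library 1455, while a fit to the 6 cellobiose and maltose libraries alone called 0 (limma; 1586 at an unadjusted p under 0.05).

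The 106 higher genes included many of the most abundant genes of the cellobiose cultures. Their mean on cellobiose was at least 1000 TPM for 18 genes, between 100 and 1000 TPM for 39, between 10 and 100 TPM for 37 and below 10 TPM for 12. The 18 most abundant held 8.12% of TPM on cellobiose and 0.180% on maltose. All 106 held 9.54%, 9.55% and 9.30% of TPM in the cellobiose libraries, against 0.311%, 0.370% and 0.0161% in the maltose libraries. With the 10 dominant genes set aside and the libraries rescaled, the shares were 9.60%, 9.69% and 9.36% on cellobiose and 0.314%, 0.379% and 0.0985% on maltose. The median coefficient of variation of these genes over the cellobiose libraries was 15.4%, in genes chosen by a test that favours a low spread. Of the 106 genes, 9 were listed at 0 in all 3 maltose libraries, against 1034 of the 23981 tested genes. None was listed at 0 in any cellobiose library, which follows from the lack of overlap between the groups in all 106.

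Some of the higher genes shared an assembly cluster. The 106 genes came from 86 assembly clusters, and 33 of them lay in 13 clusters with more than 1 called gene. Cluster TR9940 held 5 of them, out of 9 tested genes in that cluster, and these 5 summed to 49125 TPM on cellobiose and 1340 TPM on maltose. Whether genes of a cluster share sequence, so that reads could be divided between them, was not tested. They may be fragments or close copies of each other, and so may not be independent units. Of the 106 genes, 26 had more than 1 isoform, and in 24 of these 26 every isoform that reached 1 TPM in any of the 6 libraries had the higher mean on cellobiose. The genes were called on the sum of their isoforms, so such agreement is partly built in. A share over all tested genes was not computed.

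TR9940__c5_g1 was the most abundant tested gene on cellobiose. It was at 29320, 28280 and 27117 TPM in the cellobiose libraries, and at 596, 800.4 and 41.2 TPM in the maltose libraries. The groups did not overlap, which the choice of named genes required. With cellobiose higher, this held in 23.5% of all tested genes. Relative to their mean, the cellobiose libraries differed from one another less than the maltose libraries did; in TPM their SD was 1102, against 393 on maltose (n = 3 each). In the glucose library it was at 809 TPM, in poplar at 98.3 ± 87.1, in switchgrass at 872 ± 439 and in control at 955 ± 49.4 TPM (SD, n = 3 each). One of its 4 isoforms carried most of it, with a mean of 24285 TPM on cellobiose and 425 TPM on maltose. Its log2 fold change was 6.70 ± 1.14 (SE; adjusted p = 0.00562, limma) with all libraries and 5.35 ± 0.69 (adjusted p = 6.21e-05) without the third maltose library. In fits to fewer groups its call with all libraries ended, at an adjusted p of 0.0915 in the poly-A libraries alone and 0.579 in the cellobiose and maltose libraries alone. Under the second table's column names its log2 fold change was 0.14 (adjusted p = 0.880), so the call rests on the names used.

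TR9940__c4_g2, from the same assembly cluster, was the fourth most abundant tested gene on cellobiose. It was at 7899, 10551 and 9751 TPM in the cellobiose libraries, and at 561, 646 and 7.28 TPM in the maltose libraries. Every cellobiose library lay above every maltose library, which the choice of named genes required. Glucose was at 460 TPM and control at 1211 ± 247 TPM (SD, n = 3), so this gene was higher in each control library than in each maltose library. Its log2 fold change was 6.01 ± 1.32 (SE; adjusted p = 0.0419, limma) with all libraries and 3.95 ± 0.69 (adjusted p = 0.000952) without the third maltose library. The call with all libraries was lost without the first (adjusted p = 0.128), the second (0.192) or the third cellobiose library (0.166). It was also lost with a pseudocount of 0.1 (0.0754), without the filter on low values (0.0839), against a 1.5-fold change (0.0815), in the poly-A libraries alone (0.221) and in the cellobiose and maltose libraries alone (0.579).

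The 10 genes called lower on cellobiose with all libraries had a median level over genes of 0.333 TPM on cellobiose and 16.5 TPM on maltose; over all tested genes the medians were 3.92 and 3.43 TPM. Together they held 0.00434%, 0.000539% and 0.000187% of TPM in the cellobiose libraries, and 0.0450%, 0.0386% and 0.0379% in the maltose libraries. Of the 10, 4 were listed at 0 in all 3 cellobiose libraries, against 952 of the 23981 tested genes, which were not chosen as low there. None was listed at 0 in any maltose library, which follows from the lack of overlap between the groups in all 10. In the plant libraries 7 to 9 of the 10 were listed at 0, against 13.8% to 34.0% of all tested genes. Genes without spread in the plant libraries were favoured by the test.

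TR6397__c0_g1 was at 41.4, 1.36 and 0.85 TPM in the cellobiose libraries, and at 242, 183 and 175 TPM in the maltose libraries. The first cellobiose library was well above the other 2 but still below every maltose library, as the choice of named genes required. The glucose library (172 TPM) and the control libraries (157, 114 and 190.4 TPM) lay near the maltose level, and the plant libraries at 5.37 TPM or less. Its log2 fold change was -5.12 ± 0.98 (SE; adjusted p = 0.0144, limma) with all libraries and -5.21 ± 1.04 (adjusted p = 0.00299) without the third maltose library. The call with all libraries was lost without the second (adjusted p = 0.152) or the third cellobiose library (0.153), with a pseudocount of 0.1 (0.187), in the poly-A libraries alone (0.118) and in the cellobiose and maltose libraries alone (0.503).

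TR5684__c0_g1 was detected on maltose and in no other group. All 3 cellobiose libraries listed it at 0, against 24.2, 2.77 and 122 TPM in the maltose libraries. The glucose, poplar, switchgrass and control libraries also listed it at 0. It therefore met the filter of 1 TPM in at least 3 libraries only through the 3 maltose libraries, the third included. The groups at 0 added no spread to the test, so the adjusted p-values below are no separate support. The 3 maltose values span a wide range, and the highest came from the third library. The adjusted p was 0.00575 (limma) with all libraries and 0.000782 without the third maltose library; a fold has no meaning beside cellobiose libraries that are all at 0. The call with all libraries was lost with median-of-ratios scaling (adjusted p = 0.145), with a pseudocount of 10 (0.0948), in the poly-A libraries alone (0.154) and in the cellobiose and maltose libraries alone (0.579).

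Without the third maltose library the balance between the directions turned around. The same test then called 1455 genes, 6.07% of the 23981 tested. Of these 225 were higher on cellobiose, 0.938% of those tested, and 1230 were lower, 5.13% of those tested. All 106 higher and all 10 lower genes called with every library were called again, as 47.1% of the 225 and 0.813% of the 1230. The median log2 fold change was 2.61 over the 225 higher genes, -3.48 over the 1230 lower genes and 0.10 over all tested genes. The 3 cellobiose libraries lay above both remaining maltose libraries in 24% of all tested genes and below both in 18.2%; with all libraries the values did not overlap in 23.5%, cellobiose higher, and in 1.05%, cellobiose lower. In a fit to the poly-A libraries alone the same comparison gave 1920 higher and 2057 lower genes.

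**Figure D2:**
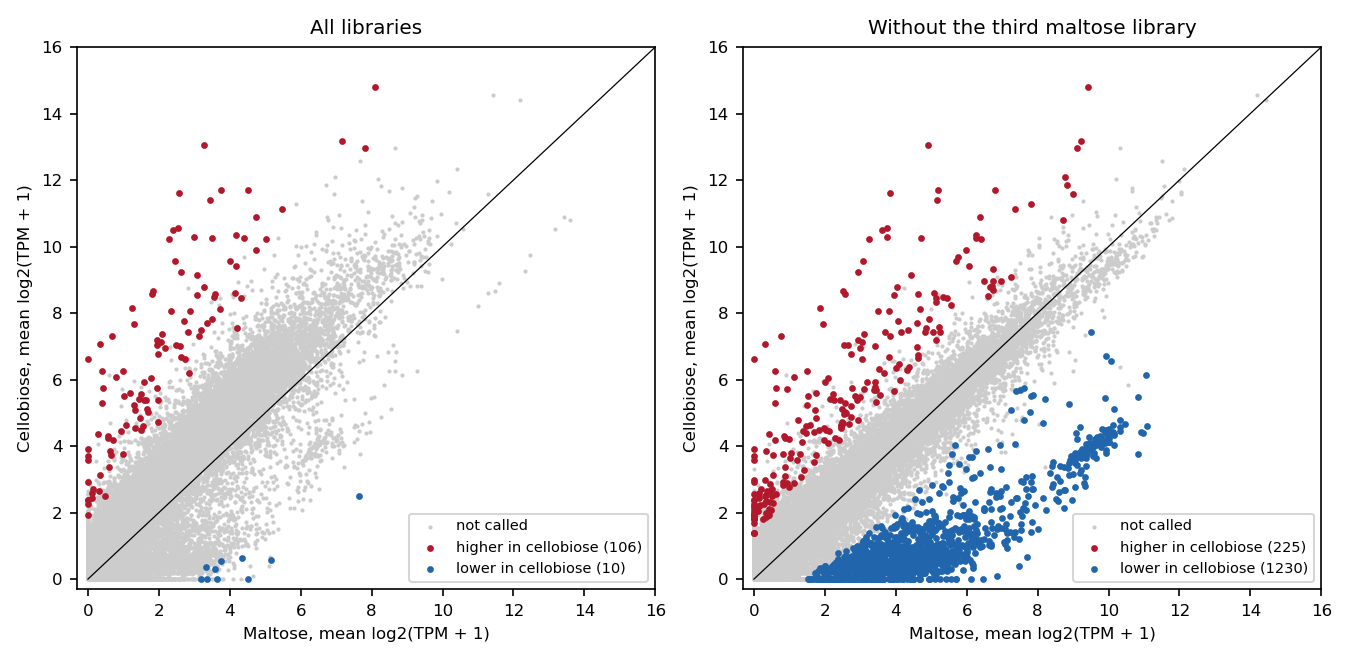
Mean log2(TPM + 1) of each tested gene on maltose (horizontal) and on cellobiose (vertical), with all libraries on the left and without the third maltose library on the right; red and blue points are genes called higher and lower on cellobiose, and the line marks equal levels. The counts are 106 and 10 on the left and 225 and 1230 on the right, where a band of blue points runs parallel to the line at high maltose levels.

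Of the 225 higher genes, 119 were called without the third maltose library and not with it. These were less abundant than the 106, with a median over genes of 21.8 TPM on cellobiose, against 3.25 TPM in the first 2 maltose libraries and 4.39 TPM in control; the 106 had a median of 126 TPM on cellobiose and 4.95 TPM in the first 2 maltose libraries. The 2 of the 119 with the largest difference in TPM came from 1 assembly cluster.

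TR14755__c0_g2 was at 3339, 4974 and 4933 TPM in the cellobiose libraries, and at 423, 458 and 8.81 TPM in the maltose libraries. TR14755__c1_g1 was at 3053, 4009 and 4188 TPM in the cellobiose libraries, and at 444, 463 and 4.65 TPM in the maltose libraries. For both genes the groups did not overlap, as their choice required for the first 2 maltose libraries. The third maltose library lay far below the other 2. On glucose they were at 873 and 775 TPM and in control at 734 ± 42.2 and 697 ± 50.9 TPM (SD, n = 3), above each maltose library and below each cellobiose library. Without the third maltose library the log2 fold changes were 3.30 ± 0.84 for TR14755__c0_g2 (SE; adjusted p = 0.0227, limma) and 3.03 ± 0.76 for TR14755__c1_g1 (adjusted p = 0.0199); with it they were 5.13 ± 1.25 (adjusted p = 0.0812) and 5.14 ± 1.31 (adjusted p = 0.10). Both calls were lost without the second (adjusted p = 0.0737 and 0.0639) or the third cellobiose library (0.0771 and 0.0711), without the first (0.182 and 0.165) or the second maltose library (0.163 and 0.157), and with median-of-ratios scaling (0.135 and 0.182).

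The 1230 genes lower on cellobiose made up a large part of the RNA of the first 2 maltose cultures. They held 0.341%, 0.535% and 0.312% of TPM in the cellobiose libraries, against 10.9%, 15.6% and 0.101% in the maltose libraries. In the first 2 maltose libraries 29 of them had a mean of at least 1000 TPM, 166 of 100 to 1000 TPM, 684 of 10 to 100 TPM and 351 below 10 TPM. The third maltose library listed 1026 of the 1230 at 0, which is 83.4%, against 50.4% of all tested genes. In it 27 genes, 2.20% of the 1230, lay above all 3 cellobiose libraries; over all tested genes that were lower on cellobiose without that library the share was 7.20%. With its 10 dominant genes set aside and the libraries rescaled, 66 of the 1230 lay above all cellobiose libraries, 5.37%, against 22.5%. The test that chose these genes left the third maltose library out, while the filter on low values counted it.

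TR10797__c0_g1 was at 9.63, 53.7 and 24.3 TPM in the cellobiose libraries, and at 1807, 2624 and 0.51 TPM in the maltose libraries. TR17602__c0_g1 was at 13.3, 30.2 and 20.4 TPM in the cellobiose libraries, and at 1514, 2624 and 1.97 TPM in the maltose libraries. In both genes the first 2 maltose libraries were far above every cellobiose library, and their choice required no overlap. The third maltose library lay below every cellobiose library. The control libraries were unequal, at 449, 119 and 37.5 TPM for TR10797__c0_g1 and at 272, 39.1 and 12.9 TPM for TR17602__c0_g1, and the glucose library was at 48.0 and 54.0 TPM. The plant libraries were at 3.53 TPM or less for the first gene and at 1.71 TPM or less for the second. Without the third maltose library the log2 fold changes were -6.47 ± 0.93 for TR10797__c0_g1 (SE; adjusted p = 0.000146, limma) and -6.56 ± 0.88 for TR17602__c0_g1 (adjusted p = 8.26e-05). With it they were -2.98 ± 1.82 (adjusted p = 0.408) and -3.43 ± 1.65 (adjusted p = 0.358).

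**Figure D3:**
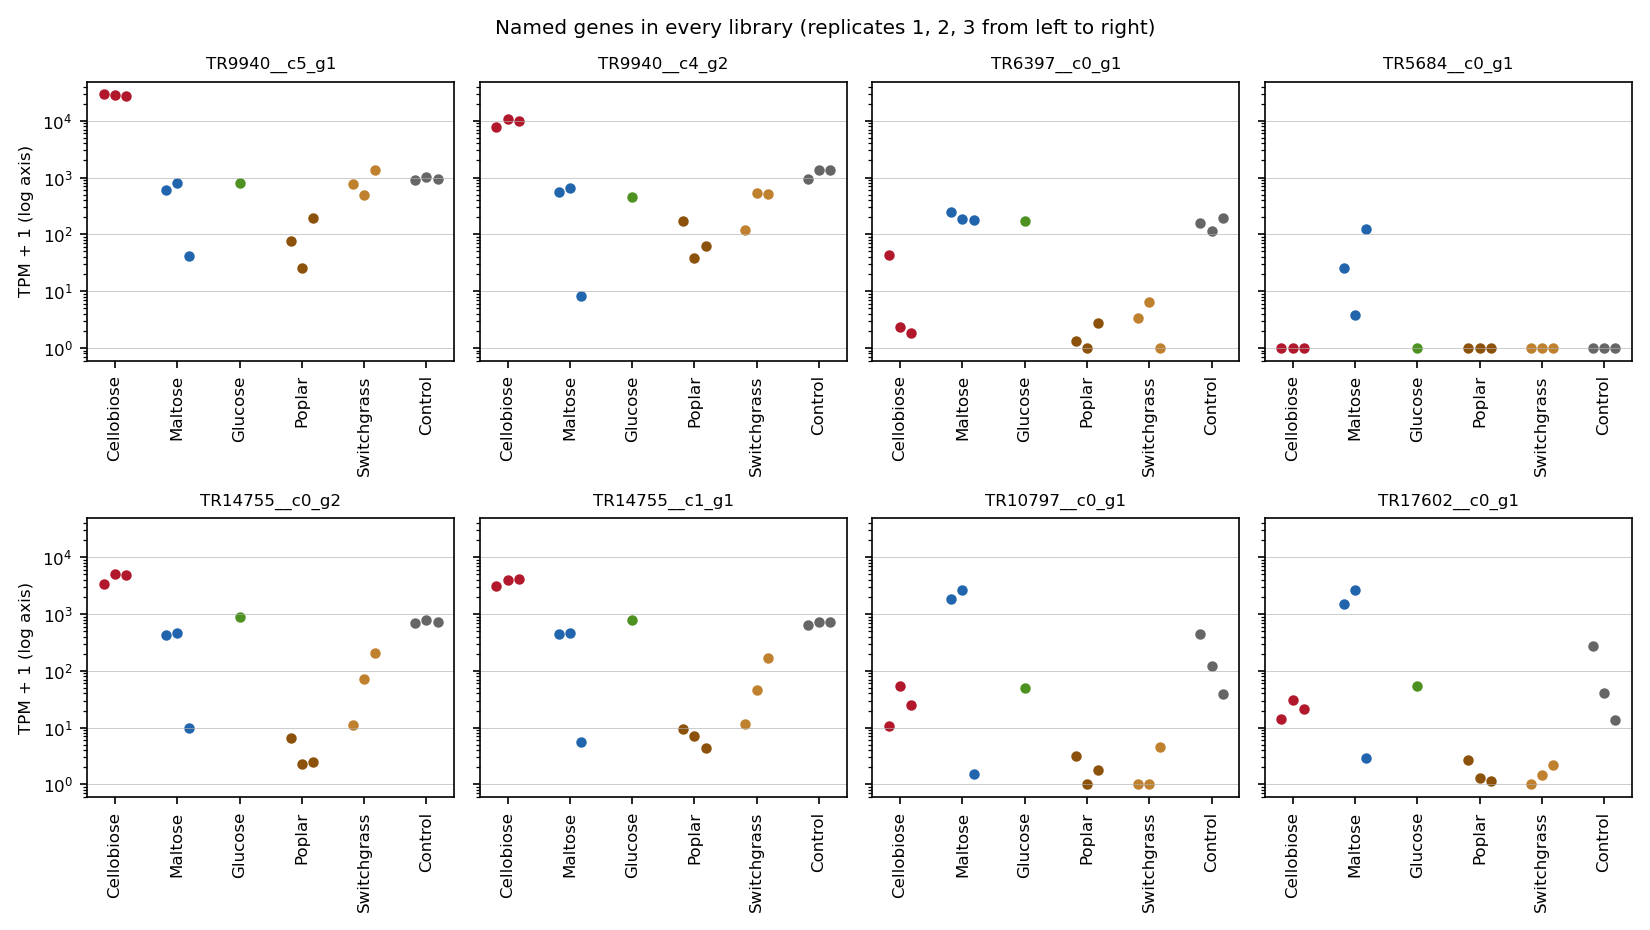
TPM + 1 on a log axis of the 8 named genes in every library, grouped by substrate, with replicates 1 to 3 from left to right. The upper row shows genes called with all libraries and the lower row genes called without the third maltose library, which lies at 0.51 TPM in TR10797__c0_g1 beside 1807 and 2624 TPM in the other maltose libraries.

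Across the other substrates, the genes higher on cellobiose were at a low level nearly everywhere else. As a percentage of its cellobiose mean, the median of the 106 genes was 5.11%, 5.29% and 0.0891% in the maltose libraries, 5.93% in the glucose library, 0.583% to 1.85% in poplar, 1.98% to 5.02% in switchgrass and 6.97% to 7.23% in the control libraries. On the log2(TPM + 1) scale the control mean was nearer to the maltose mean than to the cellobiose mean in 97 of the 106 genes, or 91.5%, against 32.7% of all tested genes. With the first 2 maltose libraries it was nearer to maltose in 101 genes, or 95.3%, against 55.8% of all tested genes. The glucose library lay below all 3 cellobiose libraries in 105 of the 106 genes, or 99.1%, against 22.0% of all tested genes, and above all 3 in 1. Each control library lay above all cellobiose libraries in 0 of the 106 genes, against 34.4%, 31.0% and 25.8% of all tested genes for the first, the second and the third. The 106 genes were chosen for high cellobiose values, while the background holds fold changes of any size. These shares are therefore not like for like, and other libraries lie below such genes partly through that choice. The plant libraries also differ from the sugar libraries in preparation, and the part of preparation in their levels cannot be told apart from that of the substrate.

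The genes lower on cellobiose had another pattern. In the 1230 genes the first control library was above all 3 cellobiose libraries in 1173 genes (95.4%, against 34.4% of all tested genes), the second in 632 (51.4%, against 31.0%), the third in 198 (16.1%, against 25.8%) and the glucose library in 536 (43.6%, against 34.3%). The excess over all tested genes was thus largest for the first control library, and the third lay below that background. The first control library was the highest of the control libraries in 1144 of the 1230 genes, or 93.0%, against 37.4% of all tested genes. In all 6 plant libraries 782 of the genes were listed at 0, or 63.6%, against 5.31% of all tested genes, and 757 of these were also listed at 0 in the third maltose library. The test took its spread from all groups together, and a gene at 0 in every plant library adds no spread there. Such genes were favoured in the calling, so part of this share may come from the test. The filter of 1 TPM in at least 3 libraries also bears on the control shares. To pass it, the 757 genes needed a control, glucose or cellobiose library at 1 TPM besides the first and second maltose libraries. The first control library was above 1 TPM in 1188 of the 1230 genes. Its shares of 95.4% and 93.0% may therefore come partly from the filter, and how far was not tested. Of the 1230, 4.23% had more than 1 isoform, against 25.1% of all tested genes.

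The more abundant of these genes were at a small percentage of their maltose level in the cellobiose and glucose libraries. For cellobiose this restates the call, since the genes were chosen as lower there than in the first 2 maltose libraries. In the 195 genes with at least 100 TPM on average in the first 2 maltose libraries, a limit chosen after the values were seen, the level as a percentage of that average had a median of 1.68% in the first cellobiose library (quartiles 1.10% and 2.33%), 2.80% in the second (1.98% and 3.41%) and 1.46% in the third (1.20% and 1.90%). In the first 2 maltose libraries, whose own average is the base, the medians were 77.9% (75.3% and 84.0%) and 122% (116% and 125%). In the third maltose library the median was 0.0337% (0% and 0.165%), with 35.4% of the genes listed at 0. The glucose library had a median of 2.59% (2.18% and 3.55%). The control libraries had medians of 21.0% (16.9% and 23.3%), 5.39% (3.35% and 6.31%) and 1.86% (1.18% and 2.46%), so these medians were further apart among the 3 control libraries than between the glucose and the cellobiose libraries. In the plant libraries the medians were 0% to 0.0737%, with 17.9% to 68.2% of the genes listed at 0, against 13.8% to 34.0% of all tested genes. Summed, the 195 genes made up 8.87% and 13.2% of TPM in the first 2 maltose libraries. What these genes have in common beyond level and isoform number, their organism of origin included, was not tested.

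**Figure D4:**
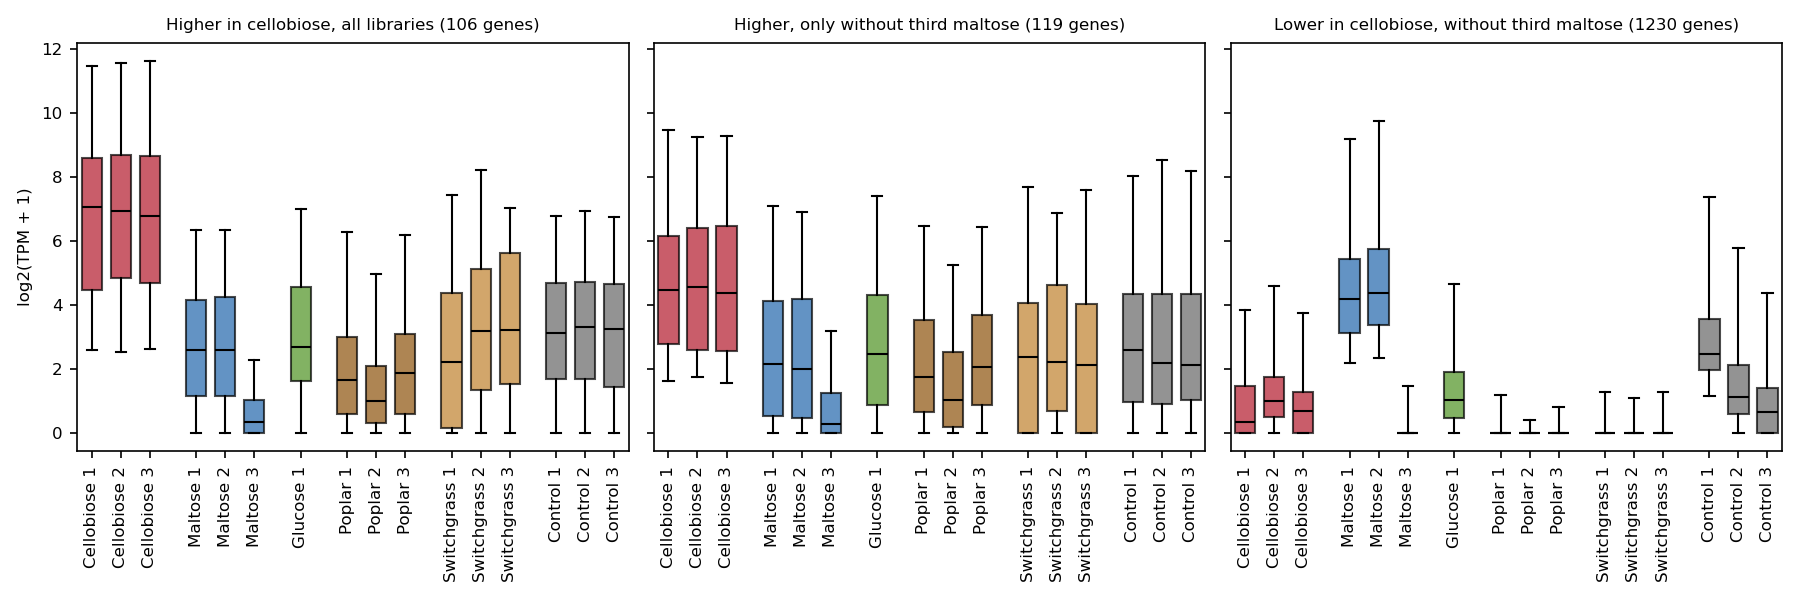
log2(TPM + 1) in every library of the 106 genes higher on cellobiose with all libraries, the 119 genes called higher without the third maltose library and not with it, and the 1230 genes lower on cellobiose without it; boxes show quartiles with the median and whiskers the 5th and 95th percentiles. In the right panel the third maltose library and the plant libraries have a median of 0, and the first control library lies above the other control libraries.

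Leaving each of the 6 libraries out of the test in turn showed where a library lay in genes called without it. Without the first cellobiose library 75 genes were higher on cellobiose; in that library 65 of them (86.7%) were above all maltose libraries, against 54.0% of all tested genes with a positive fold change, and 6 were listed at 0. For the second cellobiose library the count was 50 of 51 genes (98.0%, against 51.3%) and for the third 54 of 54 (100%, against 50.03%). In genes higher on cellobiose called without it, the first maltose library was below all cellobiose libraries in 117 of 118 (99.2%, against 34.6%), the second in 104 of 105 (99.0%, against 44.3%) and the third in 221 of 225 (98.2%, against 79.7%). That background is from a library with 50.4% of the tested genes listed at 0; with its 10 dominant genes set aside it was below all cellobiose libraries in 216 of the 225 genes (96%, against 67.6%). The backgrounds include fold changes of any size, while the called genes passed a test, so these shares are not like for like. The filter on low values also counted the left-out library. In each of the 6 cases the left-out library was on the side of its own group in most of the genes higher on cellobiose. For genes lower on cellobiose this held in 3 of 3 genes for cellobiose replicate 1, in 2 of 3 for replicate 2 and in 1 of 1 for replicate 3, and in 3 of 8 (37.5%, against 61.3% of all tested genes with a negative fold change), 5 of 6 and 27 of 1230 (2.20%, against 7.20%) for the first, the second and the third maltose library. The lists of 8 genes or fewer are too short to compare with that of the third maltose library.

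Among the most abundant genes, 52 of the 100 highest on cellobiose were also among the 100 highest of the first 2 maltose libraries. The maltose list shared 87 genes with the 100 highest of the glucose library and 80 with those of control, and the cellobiose list shared 54 and 59. Of the 100 highest genes on cellobiose, 18 were called higher than on maltose with all libraries, against 0.442% of all tested genes, and 23 without the third maltose library, against 0.938%. Of the 100 highest in the first 2 maltose libraries, 10 were called lower on cellobiose without the third, against 5.13% of all tested genes. These lists were ranked on values that the test also used, so the shares called are no separate support.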

How the data were processed

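Both deposited tables list 45286 assembled transcripts in TPM. The submitters' processing notes name RSEM; neither its version nor the assembly and alignment steps are stated in the labels. The name of the table used mentions expected counts, but its columns sum to 1000000 within 0.87, so it was treated as TPM and no count test was used. Isoforms were summed to 27990 genes by removing the isoform suffix, and 23981 genes that reached 1 TPM in at least 3 of the 16 libraries were tested with limma (version 3.58.1, R 4.3.3) on log2(TPM + 1), a scale that understates changes of low genes. The same genes were tested without the third maltose library. The test was checked on simulated data with known changes, where it called few genes with small changes. In that simulation a gene had the same spread in every library, so it does not cover a library like the third maltose library. With 3 libraries against 3 an exact test of 1 gene cannot give a p below 0.1 (10 splits, two-sided), so none was run. Groups follow the sample titles. Named genes were, in each direction, the 2 called genes without overlap between groups and with the largest difference in mean TPM, chosen with all libraries and, among genes not called there, without the third maltose library. The comparison, its lists and tests were chosen with earlier results of these data known. The alternatives were other pseudocounts, filters, scalings, weights per library, subsets of libraries, a replicate block, transcripts, a 1.5-fold threshold, the second table's column names and each library left out.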

Additional observations from a re-analysis of the deposited data

How the results depend on the processing

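The count of genes called with all libraries was 116, and it was 43 with a pseudocount of 0.1, 272 with a pseudocount of 10, 0 in a fit to the cellobiose and maltose libraries only (limma; 1586 genes at an unadjusted p under 0.05), 5544 (3005 higher, 2539 lower) with weights per library estimated gene by gene, 9586 (5815 higher, 3771 lower) with limma's default weights, 185 for transcripts tested one by one, 68 in a test against a 1.5-fold change and 7912 (1558 higher, 6354 lower) under the column names of the second table; leaving out 1 library gave 54 to 1455. Without the third maltose library the count was 1455, and it was 954 with a pseudocount of 0.1, 440 with a minimum of 10 TPM in 3 or more libraries, 2814 in a fit to the cellobiose and maltose libraries only, 3977 in a fit to the poly-A libraries only, 5142 (2592 higher, 2550 lower) with weights estimated gene by gene, 4831 (2388 higher, 2443 lower) with the default weights and 5968 (1091 higher, 4877 lower) under the second table's names, where the library left out is the column used here as the second maltose library; leaving out 1 more library gave 973 to 1321, where a maltose group of 1 library was assumed to vary like the other groups. The default weights did not converge, and the gene-by-gene estimate was chosen after seeing the data. Under the second table's names the log2 fold change was 0.14 for TR9940__c5_g1, -0.80 for TR9940__c4_g2, -3.48 for TR14755__c0_g2 and -3.70 for TR14755__c1_g1. The cause of these shifts was not tested, apart from the fewer genes and libraries that some settings hold. The replicate numbers did not pair the libraries (correlations of deviations from the group mean 0.0711, -0.0456 and -0.0318 for the same numbers); with a replicate block the counts were 100 and 1296, with 95 and 1286 of the genes called in both fits, and the adjusted p was 0.0508 for TR9940__c4_g2 and 0.0554 for TR14755__c0_g2, the calls of named genes that the block ended. The calls of TR10797__c0_g1 and TR17602__c0_g1 without the third maltose library were kept in 18 of 18 alternatives each. The call of TR9940__c5_g1 was lost in 3 of 19 alternatives, that of TR6397__c0_g1 in 5 of 19 and that of TR5684__c0_g1 in 4 of 18. The call of TR9940__c4_g2 was lost in 9 of 19 and its direction reversed in 1; for TR14755__c0_g2 these were 9 and 1 of 18 and for TR14755__c1_g1 7 and 1 of 18. Both TR14755 genes also lost the call without the filter on low values (adjusted p = 0.0639 and 0.0510) and against a 1.5-fold change (0.0569 and 0.0566), and TR14755__c0_g2 with a pseudocount of 0.1 (0.0569). Depth is unknown, so low values carry no counting interval.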
